A study of Mus musculus with 18 samples.

Results

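The inflammatory CC chemokines examined here are 7 genes, Ccl2, Ccl7, Ccl12, Ccl8, Ccl3, Ccl4 and Ccl5, taken by name from the 55536 genes of the count files through GENCODE M21. All 7 had enough reads to be tested. Their transcripts were counted by poly(A) RNA-seq of whole cultures of BALB/c mouse bone marrow after 4 days, in 18 samples that form 6 groups of 3. Marrow labelled Cysltr1-/- or WT received GM-CSF at 40 ng/mL with EMT6 conditioned medium at 50% of the volume, GM-CSF with IL-6 at 40 ng/mL, or GM-CSF alone, so that every group had GM-CSF and none was free of cytokine. Each sample pooled marrow of 3 mice. The sources used here do not say whether replicate pools were drawn from separate mice, so the p-values measure the spread between these samples. Cysltr1 encodes a receptor for cysteinyl leukotrienes, EMT6 is a mouse mammary carcinoma line whose medium was conditioned for 24 h, and GM-CSF drives marrow progenitors toward granulocytes, macrophages and dendritic-like cells.

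Chemokines of the CC family are small secreted proteins that draw leukocytes along a gradient by binding G-protein-coupled receptors. Ccl2, Ccl7 and Ccl12 encode monocyte chemoattractant proteins that act through Ccr2, the receptor by which monocytes leave the marrow, and Ccl8 encodes the related monocyte chemoattractant protein-2, which in mice acts mainly through Ccr8. Ccl3 and Ccl4 encode macrophage inflammatory proteins 1-alpha and 1-beta, which attract and activate leukocytes, Ccl3 in part through Ccr1. Ccl5 encodes RANTES, which binds Ccr1 and Ccr3 among others and is also made by T and NK cells.

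All 7 genes lie on mouse chromosome 11 (build mm10) in 2 blocks. Ccl2 (82035571 to 82037453), Ccl7 (82045712 to 82047525), Ccl12 (82101845 to 82103400) and Ccl8 (82115185 to 82116799) are on the plus strand within 81.2 kb. Ccl5 (83525778 to 83530518, minus strand), Ccl3 (83647844 to 83649355, minus) and Ccl4 (83662584 to 83664683, plus) span 138.9 kb, with 1409 kb between the blocks. Of the 7, only Ccl2 lies within the span of another annotated gene, Gm17268 on the opposite strand, and no exons overlap. RefSeq promoter windows (GRCm38.p6, 300 bases around the start site) matched 3 of the 7 genes. All 3 are shown, as the other members had no window there. Ccl12 and Ccl8 neighbour each other, and the highest mean was with EMT6 medium for Ccl12 and with IL-6 for Ccl8. In labelled Cysltr1-/- the lead of EMT6 medium over IL-6 for Ccl12 was weak, as given below. Ccl3 reached the highest level of the 7, with EMT6 medium. The capitals mark matches to TATAAA.
Ccl12, chr11:82101595-82101894, plus strand: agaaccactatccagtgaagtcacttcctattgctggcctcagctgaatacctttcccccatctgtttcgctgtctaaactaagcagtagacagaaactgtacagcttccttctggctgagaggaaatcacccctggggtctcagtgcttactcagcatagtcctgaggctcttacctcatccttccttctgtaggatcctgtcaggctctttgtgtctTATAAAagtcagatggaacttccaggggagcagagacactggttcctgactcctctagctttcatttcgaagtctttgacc
Ccl8, chr11:82114935-82115234, plus strand: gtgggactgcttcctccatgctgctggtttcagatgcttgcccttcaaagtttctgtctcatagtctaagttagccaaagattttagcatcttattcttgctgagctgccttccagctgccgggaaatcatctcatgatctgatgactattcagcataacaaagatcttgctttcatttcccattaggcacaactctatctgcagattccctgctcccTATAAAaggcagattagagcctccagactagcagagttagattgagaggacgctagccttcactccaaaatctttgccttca
Ccl3, chr11:83649329-83649628, minus strand: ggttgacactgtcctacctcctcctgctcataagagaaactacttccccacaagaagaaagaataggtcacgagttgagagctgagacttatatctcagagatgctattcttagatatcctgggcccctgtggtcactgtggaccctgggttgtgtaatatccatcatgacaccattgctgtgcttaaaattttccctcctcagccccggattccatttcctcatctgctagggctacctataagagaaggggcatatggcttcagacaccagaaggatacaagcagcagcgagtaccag
The TATAAA of Ccl12 lies at -31 to -26 and that of Ccl8 at -32 to -27 from the start site, both on the gene's own strand. TATAAA on either strand occurs in 13.6% of the 32851 promoter windows of the table. On both strands of the 3 windows there was no match to the NF-kB consensus (in 8.46% of all windows), to the STAT-type motif TTCNNNGAA (8.30%), to the AP-1 motif TGANTCA (7.81%) or to the core of the interferon-stimulated response element (3.44%). These letters are a description of the windows and not evidence of binding or of its absence.

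Gene counts ran from 9.58 M to 32.0 M per library, and were lowest in the EMT6 medium cultures labelled Cysltr1-/- (9.58 M to 12.95 M). Reads in no annotated feature took 50.1% to 50.4% of the labelled Cysltr1-/- EMT6 medium libraries, 34.7% to 37.5% of the WT EMT6 medium libraries and 12.9% to 20.5% of all others. Cysltr1 counts were not lower in the libraries labelled Cysltr1-/-: they ran from 96 to 122 against 68 to 83 in WT with EMT6 medium, from 1867 to 1994 against 1575 to 1981 with IL-6, and from 1271 to 1904 against 915 to 1718 with GM-CSF alone. The deleted part of the allele is not given in the sources used here, so counts over the whole gene do not check the labels. Myeloid markers were present, with all 10 neutrophil and all 10 monocyte and macrophage markers counted in every library. The 10 neutrophil markers summed to 4926 to 5194 CPM (counts scaled to library size) in labelled Cysltr1-/- and 11830 to 12950 CPM in WT under GM-CSF alone. In bulk RNA, fewer cells of a type and less RNA per cell cannot be told apart.

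Levels below are CPM scaled by the trimmed mean of M-values (TMM), which leaves the genes that differ most between libraries out of the scale. Ccl2 had 138, 169 and 184 CPM with EMT6 medium in labelled Cysltr1-/- cultures, against 182, 174 and 161 CPM in WT. With IL-6 it had 74.0, 70.8 and 71.5 CPM in labelled Cysltr1-/- cultures, against 32.6, 34.3 and 35.0 CPM in WT. With GM-CSF alone it had 35.1, 31.7 and 35.2 CPM in labelled Cysltr1-/- cultures, against 16.5, 16.2 and 16.2 CPM in WT. The EMT6 medium samples of both genotypes overlapped and lay above all others, and the labelled Cysltr1-/- samples lay above WT without overlap in the other 2 cultures. The labelled Cysltr1-/- samples with GM-CSF alone overlapped the WT samples with IL-6.

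Ccl7 had 57.4, 61.8 and 71.1 CPM with EMT6 medium in labelled Cysltr1-/- cultures, against 62.2, 62.3 and 53.9 CPM in WT. With IL-6 it had 24.0, 28.2 and 30.6 CPM in labelled Cysltr1-/- cultures, against 9.97, 9.07 and 9.45 CPM in WT. With GM-CSF alone it had 5.98, 6.30 and 5.63 CPM in labelled Cysltr1-/- cultures, against 2.48, 2.64 and 3.25 CPM in WT. The EMT6 medium samples of both genotypes overlapped and lay above all others. Every other pair of neighbouring groups was separate, with the WT samples with IL-6 above the labelled Cysltr1-/- samples with GM-CSF alone.

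Ccl12 was the sparsest of the 7 and is given as raw counts. It had 59, 29 and 41 counts with EMT6 medium in labelled Cysltr1-/- cultures, against 46, 37 and 34 in WT. With IL-6 it had 30, 41 and 46 counts in labelled Cysltr1-/- cultures, against 6, 4 and 8 in WT. With GM-CSF alone it had 11, 20 and 9 counts in labelled Cysltr1-/- cultures, against 5, 1 and 4 in WT. The WT samples without EMT6 medium held single digits, and a background estimated from reads in no annotated feature came to 18.7% to 79.3% of those counts. On the scaled level Ccl12 averaged 1.80 ± 0.360 CPM in labelled Cysltr1-/- and 0.263 ± 0.0581 CPM in WT with IL-6 (SD, n = 3 each). Its EMT6 medium samples of both genotypes overlapped, those of WT also overlapped the labelled Cysltr1-/- samples with IL-6, and fold changes of Ccl12 had the largest SE of the 7 in every comparison.

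Ccl8 had 60.60, 62.20 and 66.96 CPM with EMT6 medium in labelled Cysltr1-/- cultures, against 45.3, 49.7 and 41.0 CPM in WT. With IL-6 it had 117, 125 and 126 CPM in labelled Cysltr1-/- cultures, against 72.1, 73.6 and 72.4 CPM in WT. With GM-CSF alone it had 8.41, 8.57 and 8.66 CPM in labelled Cysltr1-/- cultures, against 2.52, 2.71 and 3.65 CPM in WT. None of the 6 groups overlapped its neighbour, and Ccl8 was the only member whose highest level in both genotypes was with IL-6.

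Ccl3 had 1307, 1480 and 1572 CPM with EMT6 medium in labelled Cysltr1-/- cultures, against 2388, 2397 and 2264 CPM in WT. In the 4 groups without EMT6 medium its 12 samples lay between 92.7 and 112.5 CPM. The difference among those 4 groups was thus small, and the step with EMT6 medium separated all 6 treated samples from the rest. Ccl3 made up 0.204% ± 0.0181 of gene counts with EMT6 medium in labelled Cysltr1-/- and 0.279% ± 0.00811 in WT (SD, n = 3 each). Its rank by counts among all genes was 17 to 22 in labelled Cysltr1-/- and 16 to 17 in WT with EMT6 medium, against 2361 to 2867 across the other 4 groups.

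Ccl4 had 75.1, 72.5 and 81.7 CPM with EMT6 medium in labelled Cysltr1-/- cultures, against 187, 192 and 179 CPM in WT. With IL-6 it had 41.6, 46.1 and 48.2 CPM in labelled Cysltr1-/- cultures, against 24.0, 24.1 and 24.3 CPM in WT. With GM-CSF alone it had 44.6, 43.4 and 41.6 CPM in labelled Cysltr1-/- cultures, against 21.1, 20.1 and 22.0 CPM in WT. The genotypes did not overlap in any culture, but labelled Cysltr1-/- was the lower with EMT6 medium and the higher in the other 2 cultures.

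Ccl5 had 20.6, 22.1 and 22.0 CPM with EMT6 medium in labelled Cysltr1-/- cultures, against 14.2, 16.4 and 12.5 CPM in WT. With IL-6 it had 17.6, 18.1 and 19.8 CPM in labelled Cysltr1-/- cultures, against 10.4, 11.1 and 11.0 CPM in WT. With GM-CSF alone it had 41.9, 39.7 and 41.6 CPM in labelled Cysltr1-/- cultures, against 27.3, 24.5 and 27.2 CPM in WT. Ccl5 was the only member highest with GM-CSF alone in both genotypes, and its labelled Cysltr1-/- samples lay above WT in every culture.

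**Figure D1:**
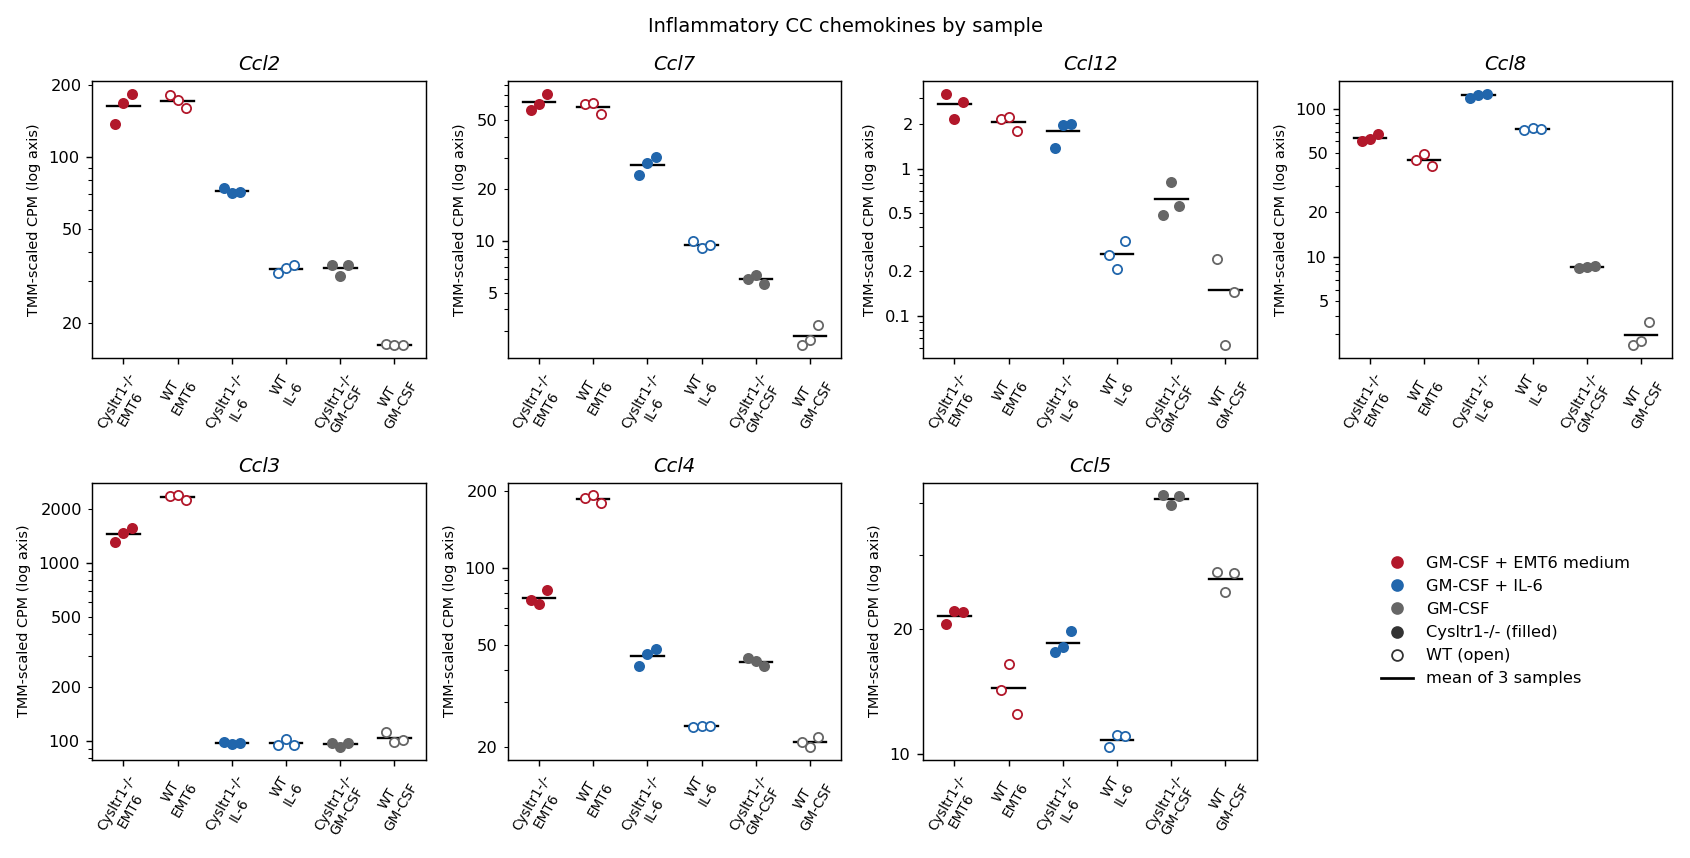
TMM-scaled CPM of the 7 chemokines (log axis) in each of the 18 samples, by culture and genotype; filled points are labelled Cysltr1-/-, open points WT, and lines are means of 3. Ccl3 stood at 1307 to 2397 CPM with EMT6 medium and 92.7 to 112.5 CPM elsewhere, Ccl8 was highest with IL-6, and Ccl5 with GM-CSF alone.

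With EMT6 medium, 6 of the 7 chemokines rose and Ccl5 fell against GM-CSF alone, in both genotypes. The calls are from edgeR's quasi-likelihood test at a Benjamini-Hochberg adjusted p under 0.05 over 28334 genes. The test called 87.2% of all genes in labelled Cysltr1-/- cultures (54.3% higher, 32.9% lower) and 81.3% in WT (46.8% higher, 34.5% lower), so that a call by itself sets no gene apart, and the size of the change is the more telling value. The median log2 fold change of the 7 was 2.27 in labelled Cysltr1-/- and 3.68 in WT, against 0.83 and 0.49 over all genes tested. Over the 14441 genes with a mean of at least 5 CPM by library size in some group, which include every member but Ccl12, the median had the other sign, at -0.36 in labelled Cysltr1-/- (5064 genes higher, 8081 lower) and -0.38 in WT (4580 higher, 8430 lower).

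Among the monocyte chemoattractants, Ccl7 rose by 3.40 ± 0.10 (log2 fold change ± SE) in labelled Cysltr1-/- (adjusted p = 1.71e-31) and by 4.38 ± 0.11 in WT (1.45e-33). Ccl2 rose by 2.27 ± 0.07 in labelled Cysltr1-/- (7.72e-30) and by 3.40 ± 0.08 in WT (5.23e-35). Ccl8 rose by 2.89 ± 0.08 in labelled Cysltr1-/- (6.21e-32) and by 3.89 ± 0.10 in WT (1.74e-33). Ccl12 rose by 2.14 ± 0.27 in labelled Cysltr1-/- (2.08e-09) and by 3.68 ± 0.37 in WT (4.32e-12); the WT value was 4.51 with the estimated background taken off the counts.

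The macrophage inflammatory proteins differed from each other in how far the rise depended on the genotype. Ccl3 rose 15.1-fold in labelled Cysltr1-/- (log2 3.92 ± 0.06, adjusted p = 6.24e-41) and 22.6-fold in WT (4.50 ± 0.06, 7.46e-43). Ccl4 rose 1.77-fold in labelled Cysltr1-/- (0.82 ± 0.06, 8.85e-17) and 8.81-fold in WT (3.14 ± 0.06, 2.20e-37). Ccl5 fell by 0.93 ± 0.07 in labelled Cysltr1-/- (2.11e-15) and by 0.88 ± 0.08 in WT (1.36e-13) on the log2 scale.

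The scale matters for these sizes. With library sizes in place of TMM the median gene moved up by 0.61 in labelled Cysltr1-/- and 0.49 in WT, which put Ccl2 at 2.88, Ccl7 at 4.01, Ccl12 at 2.75, Ccl8 at 3.50, Ccl3 at 4.53, Ccl4 at 1.44 and Ccl5 at -0.32 in labelled Cysltr1-/-, with every direction kept. The 5 carcinoma and epithelial markers summed to 48.2 to 62.6 CPM in labelled Cysltr1-/- and 39.1 to 42.8 CPM in WT with EMT6 medium, against 817 to 1155 CPM in the other 4 groups, where Cdh1 made up most of the sum. Krt8, Krt18 and Krt19, keratins of epithelial cells, were each at or below 2.73 CPM on average in every group. With EMT6 medium the neutrophil markers summed to 1456 to 1739 CPM in labelled Cysltr1-/- and 2200 to 2507 CPM in WT, and the monocyte and macrophage markers to 1283 to 1468 CPM and 2246 to 2403 CPM, all below their sums with GM-CSF alone. Some members went the other way. Cd68 averaged 646 CPM in labelled Cysltr1-/- and 998 CPM in WT, against 409 and 510 CPM with GM-CSF alone. Fcgr1 averaged 34.3 and 38.7 CPM against 31.5 and 27.2 CPM. Cd14 was higher in WT alone, and Ly6c2 and Ly6g in labelled Cysltr1-/- alone. The other markers of these lists averaged lower in both genotypes. The dendritic cell markers also summed lower, at 234 to 263 CPM in labelled Cysltr1-/- and 325 to 354 CPM in WT with EMT6 medium, against 1670 to 1716 and 2224 to 2325 CPM with GM-CSF alone. Of that list only Flt3 was higher, averaging 19.0 and 15.2 CPM with EMT6 medium against 6.27 and 6.02 CPM with GM-CSF alone. The eosinophil markers summed higher, at 524 to 594 CPM in labelled Cysltr1-/- and 842 to 945 CPM in WT, against 172 to 191 and 604 to 683 CPM with GM-CSF alone. Within that list Siglecf was lower, at 4.28 and 2.32 CPM on average against 12.5 and 28.9 CPM with GM-CSF alone. Ear2 was lower too, at 0.673 and 1.13 CPM against 17.2 and 25.4 CPM. Prg2 and Epx, which made up most of the sum, and Il5ra were higher in both genotypes. B cell markers were higher as well, at 150.5 to 166 CPM in labelled Cysltr1-/- and 271 to 298 CPM in WT, against 66.9 to 69.8 and 103 to 106 CPM with GM-CSF alone. The part of these cell types in the chemokine changes was not tested.

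**Figure D2:**
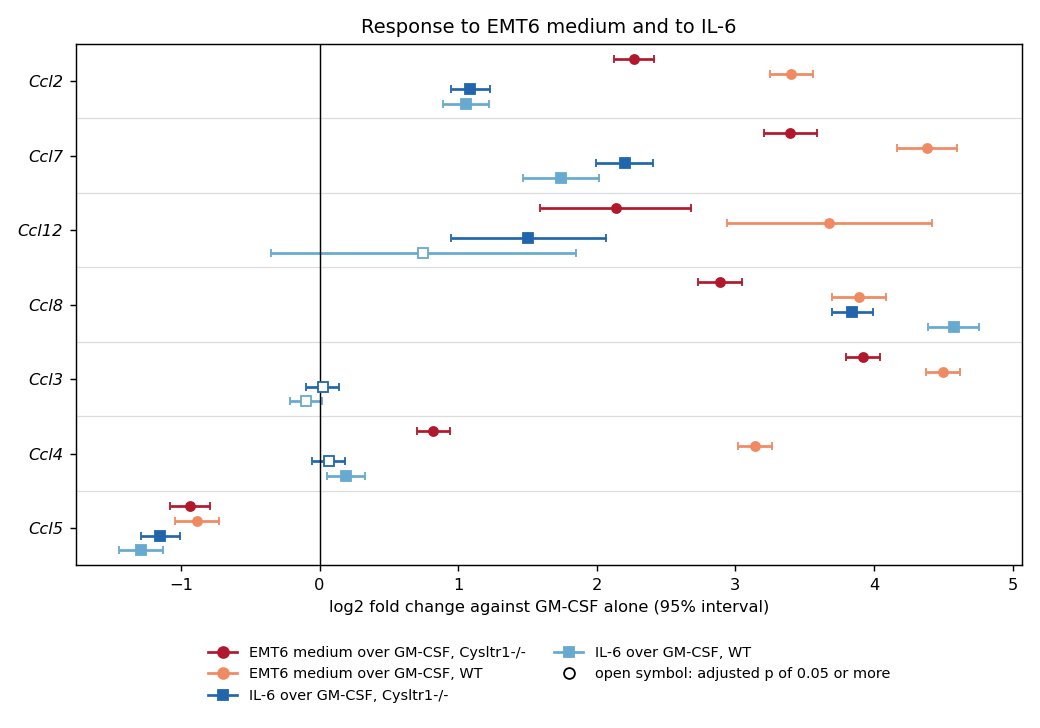
Log2 fold change of each chemokine against GM-CSF alone with its 95% interval, for EMT6 medium (circles) and IL-6 (squares) in labelled Cysltr1-/- (darker) and WT (paler); open symbols had an adjusted p of 0.05 or more. Ccl3 stood at 3.92 and 4.50 with EMT6 medium but near 0 with IL-6, while Ccl8 rose in all 4 comparisons.

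With IL-6, 4 of the 7 chemokines rose, Ccl5 fell and the other 2 did not pass the test, in each genotype. The background was lower here, at 14.3% of genes called in labelled Cysltr1-/- (5.55% higher, 8.78% lower) and 21.7% in WT (10.4% higher, 11.3% lower). The median log2 fold change of the 7 was 1.09 in labelled Cysltr1-/- and 0.75 in WT, against 0.02 and -0.03 over all genes tested. IL-6 and EMT6 medium were both set against the same GM-CSF samples, so the 2 responses are not independent of each other. Leaving the EMT6 medium libraries out of the fit gave 5 calls in each genotype, as with them.

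Ccl8 rose 14.4-fold with IL-6 in labelled Cysltr1-/- (log2 3.84 ± 0.07, adjusted p = 1.44e-35) and 23.9-fold in WT (4.58 ± 0.09, 5.49e-35). Ccl7 rose by 2.20 ± 0.10 in labelled Cysltr1-/- (1.18e-21) and by 1.74 ± 0.14 in WT (3.87e-14). Ccl2 rose by 1.09 ± 0.07 in labelled Cysltr1-/- (2.44e-16) and by 1.06 ± 0.08 in WT (2.90e-14). Ccl12 rose by 1.51 ± 0.28 in labelled Cysltr1-/- (6.00e-05), while in WT its value of 0.75 ± 0.54 had an adjusted p of 0.412 and a 95% interval of -0.35 to 1.85.

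Ccl3 did not pass the test with IL-6, at 0.02 ± 0.06 in labelled Cysltr1-/- (95% interval -0.09 to 0.14, adjusted p = 0.882) and -0.10 ± 0.06 in WT (-0.21 to 0.02, 0.288). Ccl4 was at 0.07 ± 0.06 in labelled Cysltr1-/- (adjusted p = 0.564) and rose by 0.19 ± 0.07 in WT (0.0350), a call that was lost on leaving out WT GM-CSF replicate 1 or 2 or any of the 3 WT IL-6 replicates (adjusted p from 0.073 to 0.172). Ccl5 fell by 1.15 ± 0.07 in labelled Cysltr1-/- (3.73e-17) and by 1.29 ± 0.08 in WT (1.58e-17).

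Set directly against IL-6, EMT6 medium left 6 of the 7 chemokines higher and Ccl8 lower in both genotypes, although Ccl5 in labelled Cysltr1-/- changed sign with DESeq2's scaling. Here the test called 86.2% of genes in labelled Cysltr1-/- (53.8% higher, 32.4% lower) and 81.8% in WT (48.1% higher, 33.8% lower). The median of the 7 was 0.75 in labelled Cysltr1-/- and 2.64 in WT, against 0.77 and 0.53 over all genes, and against -0.33 and -0.35 over the genes of at least 5 CPM. Ccl8 was lower by 0.96 ± 0.06 in labelled Cysltr1-/- (adjusted p = 1.00e-18; -0.37 with library sizes alone) and by 0.68 ± 0.06 in WT (2.03e-13; -0.19 with library sizes alone). Ccl3 was higher by 3.90 ± 0.06 in labelled Cysltr1-/- (9.90e-41) and by 4.59 ± 0.06 in WT (7.33e-43). Ccl4 was higher by 0.75 ± 0.06 in labelled Cysltr1-/- (1.26e-15; 1.35 with library sizes alone) and by 2.95 ± 0.06 in WT (1.09e-36).

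The attractants of monocytes other than Ccl8 were also higher with EMT6 medium than with IL-6. Ccl2 was higher by 1.18 ± 0.07 in labelled Cysltr1-/- (adjusted p = 1.68e-20) and by 2.34 ± 0.07 in WT (1.52e-30). Ccl7 was higher by 1.20 ± 0.08 in labelled Cysltr1-/- (1.91e-18) and by 2.64 ± 0.09 in WT (7.03e-29). With library sizes alone the labelled Cysltr1-/- values were 1.77 for Ccl2, 1.79 for Ccl7, 1.22 for Ccl12 and 0.81 for Ccl5. The remaining calls in labelled Cysltr1-/- were weak: Ccl12 at 0.63 ± 0.22 (0.00946) was lost under DESeq2 (0.40, adjusted p = 0.17), and Ccl5 at 0.21 ± 0.08 (0.0123) came to -0.01 there (adjusted p = 0.896), where the median gene moved by -0.23. In WT, Ccl12 was higher by 2.93 ± 0.32 (7.72e-11) and Ccl5 by 0.40 ± 0.09 (7.56e-05).

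The genotypes differed in a way that depended on the culture. With GM-CSF alone and with IL-6, 6 of the 7 chemokines were higher in labelled Cysltr1-/- than in WT and Ccl3 did not pass the test. With EMT6 medium, 2 were higher, 2 were lower and 3 did not pass. The test called 52.1% of genes between genotypes with EMT6 medium (32.3% higher, 19.8% lower), 30.5% with IL-6 (12.1% higher, 18.4% lower) and 27.3% with GM-CSF alone (10.1% higher, 17.2% lower). The medians of the 7 were 0.09, 0.91 and 1.06 in that order of cultures, against 0.27, 0.09 and 0.04 over all genes and -0.05, -0.06 and -0.04 over the genes of at least 5 CPM.

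With GM-CSF alone, Ccl12 was higher by 1.97 ± 0.46 in labelled Cysltr1-/- (log2 fold change over WT, adjusted p = 6.52e-04), Ccl8 by 1.49 ± 0.12 (9.02e-14), Ccl7 by 1.08 ± 0.15 (1.22e-07) and Ccl2 by 1.06 ± 0.08 (1.93e-14). Ccl4 was higher by 1.03 ± 0.06 (1.13e-17) and Ccl5 by 0.63 ± 0.07 (1.90e-10). Ccl3 was at -0.12 ± 0.06 (adjusted p = 0.146, 95% interval -0.23 to 0.00), and without WT GM-CSF replicate 2, the lowest of its group for Ccl3, it was called at -0.17 (0.0357). The neutrophil markers moved with the genotype here, as given above, and the 10 monocyte and macrophage markers summed to 2657 to 2737 CPM in labelled Cysltr1-/- and 3405 to 3667 CPM in WT. Their part in the chemokine differences was not tested.

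With IL-6, Ccl12 was higher by 2.72 ± 0.33 in labelled Cysltr1-/- (adjusted p = 4.21e-09), Ccl7 by 1.54 ± 0.09 (5.43e-18), Ccl2 by 1.09 ± 0.07 (8.54e-17) and Ccl8 by 0.76 ± 0.06 (1.06e-14). Ccl4 was higher by 0.91 ± 0.06 (5.43e-16) and Ccl5 by 0.77 ± 0.08 (2.53e-10), while Ccl3 was at 0.00 ± 0.06 (0.986). The value of Ccl3 was 0.15 and called (0.0274) with library sizes alone, under which the median gene moved by 0.14. The neutrophil markers summed to 2419 to 2496 CPM in labelled Cysltr1-/- and 6685 to 6975 CPM in WT with IL-6, and the monocyte and macrophage markers to 2880 to 3010 CPM and 3715 to 3922 CPM in the same order; their part was not tested. Without the EMT6 medium libraries the test gave 6 calls in each of these 2 cultures, as with them.

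With EMT6 medium, Ccl4 was lower by 1.28 ± 0.05 in labelled Cysltr1-/- (adjusted p = 5.62e-23) and Ccl3 was lower by 0.69 ± 0.05 (1.31e-14). Ccl5 was higher by 0.58 ± 0.08 (2.40e-07) and Ccl8 by 0.48 ± 0.06 (4.33e-08). Ccl2 at -0.08 ± 0.06 (adjusted p = 0.296), Ccl7 at 0.09 ± 0.07 (0.289) and Ccl12 at 0.42 ± 0.22 (0.108) did not pass. These 3 depend on the scaling: with library sizes alone the median gene moved by 0.24, Ccl2 was called at 0.16, Ccl7 at 0.33 and Ccl12 at 0.67, and the split was 5 higher and 2 lower, while with DESeq2's size factors Ccl2 was called at -0.18. The share of reads in no annotated feature differed between these groups, as given above; with the estimated background taken off, the count of called members was 4, as without. The neutrophil and the monocyte and macrophage marker sums were also lower in labelled Cysltr1-/- than in WT with EMT6 medium, by the values above, and their part was not tested.

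**Figure D3:**
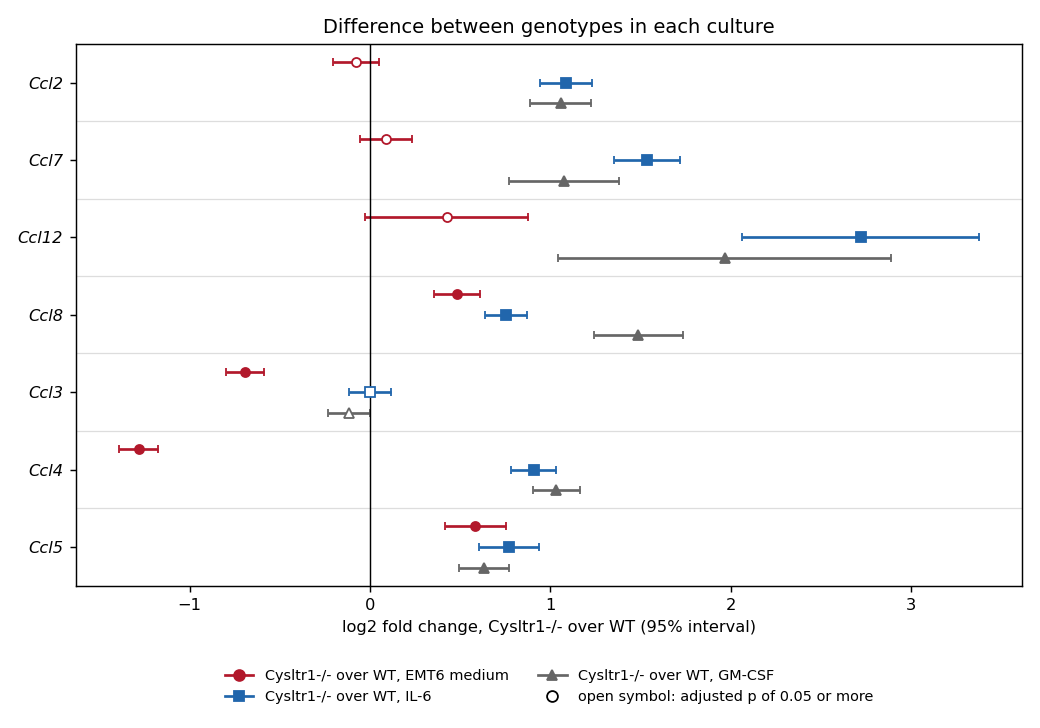
Log2 fold change of labelled Cysltr1-/- over WT with its 95% interval for each chemokine in the 3 cultures; open symbols had an adjusted p of 0.05 or more. Ccl4 stood at -1.28 with EMT6 medium, 0.91 with IL-6 and 1.03 with GM-CSF alone, and the monocyte chemoattractants were nearest 0 with EMT6 medium.

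The interaction terms tested whether a response differed between genotypes. For EMT6 medium, 6 of the 7 chemokines responded less in labelled Cysltr1-/- and Ccl5 did not pass, where the test called 25.6% of genes (13.2% higher, 12.3% lower), and the median was -1.01 for the 7 and 0.17 for all genes. The difference was largest for Ccl4 at -2.32 ± 0.08 (adjusted p = 4.47e-25), followed by Ccl12 at -1.54 ± 0.52 (0.0226), Ccl2 at -1.14 ± 0.10 (5.86e-12), Ccl8 at -1.01 ± 0.14 (1.88e-07), Ccl7 at -0.99 ± 0.17 (8.39e-06) and Ccl3 at -0.58 ± 0.08 (8.58e-08). The Ccl12 call was lost without WT GM-CSF replicate 2 (adjusted p = 0.0546) or 3 (0.0755) or labelled Cysltr1-/- GM-CSF replicate 2 (0.09). Ccl5 was at -0.05 ± 0.11 (0.789, 95% interval -0.27 to 0.17).

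These differences had unlike make-ups. For Ccl2, Ccl7, Ccl12 and Ccl8 the labelled Cysltr1-/- cultures started higher with GM-CSF alone, and under EMT6 medium Ccl2 and Ccl7 lay in overlapping ranges. Ccl3 started at a like level, 96.1 ± 2.95 CPM in labelled Cysltr1-/- and 104 ± 7.52 CPM in WT (SD, n = 3 each), and ended lower with EMT6 medium. Ccl4 started higher, at 43.2 ± 1.51 CPM in labelled Cysltr1-/- against 21.0 ± 0.948 CPM in WT, and ended lower, at 76.4 ± 4.71 against 186 ± 6.36 CPM.

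For IL-6, the only chemokine called for a difference in response between genotypes was Ccl8, at -0.73 ± 0.14 (adjusted p = 2.21e-04). The test called 7.38% of genes there (2.92% higher, 4.46% lower), and the medians were 0.12 for the 7 and 0.04 for all genes. The other 6 did not pass, from Ccl4 at -0.13 ± 0.09 (0.513) to Ccl12 at 0.76 ± 0.66 (0.624). Ccl7 at 0.46 ± 0.18 (0.136) was called at 0.55 (0.0475) without labelled Cysltr1-/- IL-6 replicate 1, its lowest library in that group. The EMT6 medium and IL-6 interactions share the GM-CSF samples of both genotypes.

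Per kilobase of exon, the mix of the 7 transcripts changed with the culture. Ccl3 made up 79.5% ± 0.469 of the 7 in labelled Cysltr1-/- and 83.3% ± 0.330 in WT with EMT6 medium (SD, n = 3 each). With IL-6, Ccl8 led at 43.2% ± 0.419 in labelled Cysltr1-/- and 39.6% ± 0.362 in WT, with Ccl3 second at 22.9% ± 0.903 and 35.4% ± 0.843. With GM-CSF alone, Ccl3 led at 43.4% ± 0.545 in labelled Cysltr1-/- and 62.0% ± 1.84 in WT. The 4 monocyte chemoattractants together made up 14.7% in labelled Cysltr1-/- and 8.64% in WT with EMT6 medium, 61.3% and 51.3% with IL-6, and 19.1% and 10.9% with GM-CSF alone. In each culture their share was higher in labelled Cysltr1-/- than in WT, without overlap, and a share within a library does not depend on how libraries are scaled. The 7 together came to 2387 ± 215 CPM per kb in labelled Cysltr1-/- and 3683 ± 131 in WT with EMT6 medium, 556 ± 18.4 and 360 ± 7.15 with IL-6, and 289 ± 6.32 and 219 ± 11.4 with GM-CSF alone.

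**Figure D4:**
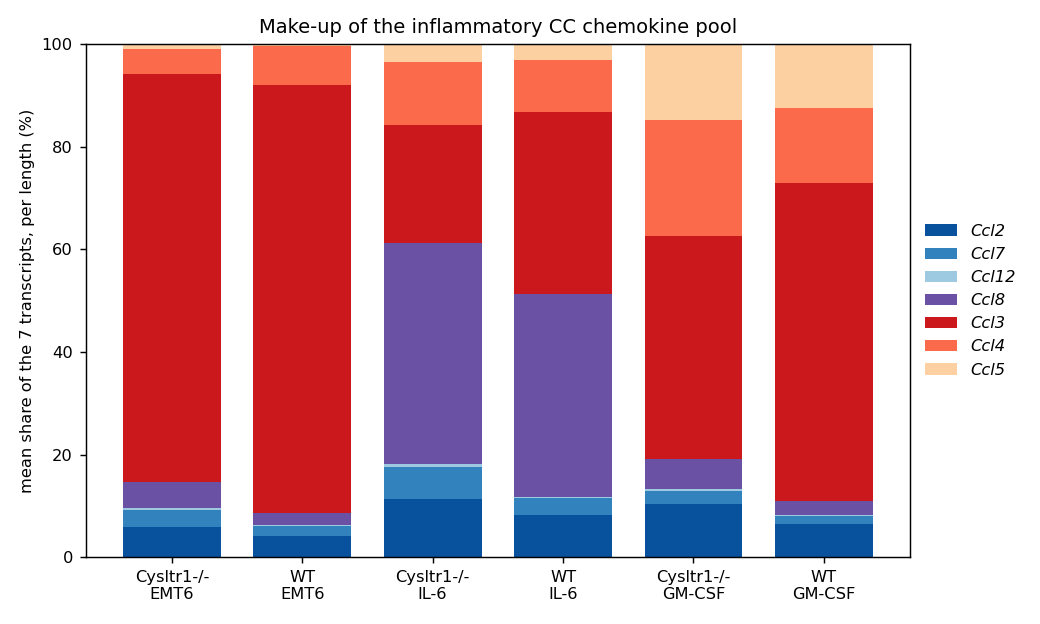
Mean share (%) of each transcript, per kilobase of exon, among the 7 chemokines in each group of 3 samples. Ccl3 filled 79.5% and 83.3% of the bars with EMT6 medium, and Ccl8 43.2% and 39.6% with IL-6.

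Ratios within a library, per kilobase, show the same pairs without any scaling. Ccl3 exceeded Ccl4 by 15.0 to 17.6 times in labelled Cysltr1-/- and 10.8 to 11.0 times in WT with EMT6 medium. With IL-6 that ratio was 1.75 to 2.04 in labelled Cysltr1-/- and 3.38 to 3.65 in WT, and with GM-CSF alone it was 1.84 to 2.02 and 3.96 to 4.60. The ratio was thus higher in labelled Cysltr1-/- with EMT6 medium and lower in the other 2 cultures, with no overlap in any. Ccl8 stood at 3.53 to 3.93 times Ccl2 in labelled Cysltr1-/- and 4.61 to 4.92 times in WT with IL-6, and below Ccl2 in every sample of the other cultures, at 0.34 to 0.98 times. Ccl5 was at 0.14 to 0.18 times Ccl2 in labelled Cysltr1-/- and 0.09 to 0.11 times in WT with EMT6 medium, against 1.40 to 1.49 and 1.79 to 1.99 times with GM-CSF alone.

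Across the 18 libraries, log2(CPM + 1) values of the members were compared with 14441 genes of at least 5 CPM in 1 group. Here CPM was by library size alone, without TMM, both in the values and in the 5 CPM minimum. The correlations describe 6 culture and genotype groups and share those libraries, their depth and their groups. Ccl2 and Ccl7 were each other's nearest gene of all (r = 0.989), followed for Ccl2 by Cd200 and Ifi202b and for Ccl7 by Snx24 and Lpxn. Ccl3 was nearest to Cxcl1, a neutrophil-attracting chemokine (r = 0.998), and Rsad2, an interferon-induced antiviral gene (r = 0.998). Ccl8 was nearest to Fam110c (r = 0.967), Adm (0.960), which encodes adrenomedullin, and Lgmn (0.950), which encodes the protease legumain. Ccl4 was nearest to Arl1 (0.986), Acadl (0.984) and Spryd7 (0.982), Ccl12 to Tnfrsf10b (0.969), and Ccl5 to Gm49087 (0.949) and Lactb (0.940). Within the 7, Ccl2 tracked Ccl12 (0.953), Ccl4 (0.931) and Ccl3 (0.899) more than its neighbour Ccl8 (0.717), and Ccl5 had an r of -0.394 with Ccl8 and 0.032 to 0.267 with the other 5.

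Ccl5 is also a product of T and NK cells, whose 8 markers summed to 20.6 to 23.0 CPM in labelled Cysltr1-/- and 14.6 to 18.0 CPM in WT with EMT6 medium, 8.57 to 9.01 and 11.9 to 12.6 CPM with IL-6, and 10.0 to 10.7 and 23.7 to 25.3 CPM with GM-CSF alone. The sum was higher in labelled Cysltr1-/- than in WT with EMT6 medium and lower in the other 2 cultures. The markers did not move as one with GM-CSF alone: Nkg7 averaged 2.11 CPM in labelled Cysltr1-/- and 13.1 CPM in WT and Cd3d 1.90 and 6.28 CPM, while Cd8a averaged 1.75 and 1.28 CPM and Gzma 0.545 and 0.0324 CPM. Nor did they with EMT6 medium: Cd3e averaged 14.8 CPM in labelled Cysltr1-/- and 8.33 CPM in WT and Ncr1 2.19 and 1.02 CPM, while Nkg7 averaged 2.59 and 4.53 CPM and Cd3d 1.22 and 1.59 CPM. Cd8a, Klrb1c, Gzma and Prf1 were each at or below 0.470 CPM on average there. None of the 8 was at 0 in a whole group, and the part of T and NK cells in the Ccl5 differences was not tested.

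Of 9 listed receptors, which were CC chemokine receptors and decoys with Ccrl2 and Cmklr1 added, 8 were measured. Ccr8 was not on the list. With EMT6 medium, 2 of the 8 rose and 6 fell in each genotype, while the median was -1.77 in labelled Cysltr1-/- and -1.29 in WT. Of all genes, 54.3% were called higher and 32.9% lower in labelled Cysltr1-/-, and 46.8% and 34.5% in WT. Ccr2, the receptor of Ccl2, Ccl7 and Ccl12, was at 21.8 ± 2.88 CPM in labelled Cysltr1-/- and 25.9 ± 1.46 CPM in WT with EMT6 medium, against 264 ± 3.08 and 403 ± 11.4 CPM with GM-CSF alone (SD, n = 3 each). That was a fall of Ccr2 by 3.61 ± 0.06 in labelled Cysltr1-/- and by 3.96 ± 0.06 in WT on the log2 scale (adjusted p = 6.07e-39 and 4.22e-41). Ccr1, a receptor of Ccl3 and Ccl5, fell by 1.99 ± 0.06 in labelled Cysltr1-/- and by 1.63 ± 0.05 in WT. Ccrl2, an atypical receptor that binds chemerin, rose by 3.45 ± 0.06 in labelled Cysltr1-/- and by 3.14 ± 0.06 in WT.

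With IL-6, 2 of the 8 fell and 6 did not pass in labelled Cysltr1-/-, while in WT 2 rose, 2 fell and 4 did not pass. The test called 14.3% of all genes in labelled Cysltr1-/- and 21.7% in WT there. Ccr2 fell by 1.08 ± 0.05 in labelled Cysltr1-/- (adjusted p = 5.85e-21) and by 0.27 ± 0.05 in WT (2.73e-05), and the interaction was -0.80 ± 0.07 (1.39e-11). Ccr2 was lower in labelled Cysltr1-/- than in WT by 0.61 ± 0.05 with GM-CSF alone (6.89e-14) and by 1.41 ± 0.05 with IL-6 (1.45e-25). Between genotypes with EMT6 medium, 5 of the 8 were lower and 3 did not pass, where 52.1% of all genes were called (32.3% higher, 19.8% lower). Ccr2 is also among the monocyte and macrophage markers, so its level and that of the list are not separate measures.

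**Figure D5:**
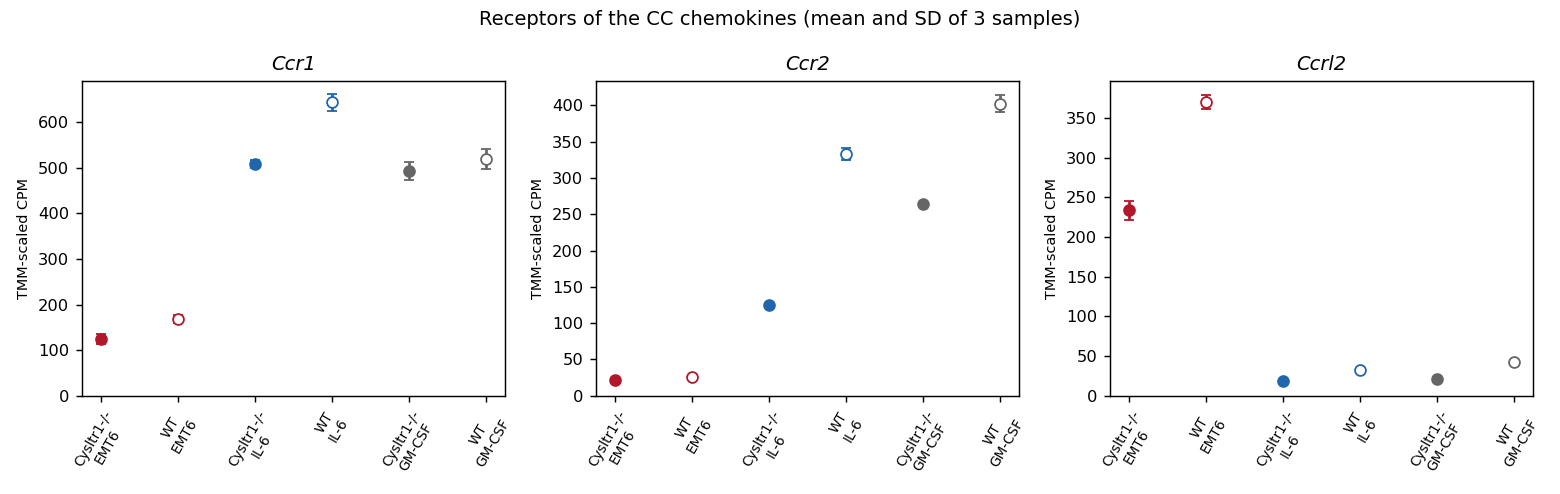
TMM-scaled CPM of Ccr1, Ccr2 and Ccrl2 by culture and genotype; points are means and bars the SD of 3 samples. Ccr2 stood at 21.8 and 25.9 CPM with EMT6 medium and at 264 and 403 CPM with GM-CSF alone, while Ccrl2 was highest with EMT6 medium.

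With EMT6 medium, 5 of the 6 other CC chemokines measured fell in each genotype, as Ccl5 did, and the median was -2.72 in labelled Cysltr1-/- and -2.79 in WT. Of all genes, 32.9% were called lower in labelled Cysltr1-/- and 34.5% in WT. Ccl17, which with Ccl22 attracts Ccr4-bearing T cells, fell by 6.74 ± 0.12 in labelled Cysltr1-/- and by 6.98 ± 0.13 in WT, and Ccl22 fell by 5.29 ± 0.07 and by 4.20 ± 0.07. With IL-6, 3 of the 6 fell and 3 did not pass in each genotype, against 8.78% of all genes lower in labelled Cysltr1-/- and 11.3% in WT. Between genotypes, 3 of the 6 were higher and 2 lower in labelled Cysltr1-/- with GM-CSF alone, 4 and 1 with IL-6, and 4 and 2 with EMT6 medium. The test called 27.3%, 30.5% and 52.1% of all genes in that order of cultures. Ccl22 was higher in labelled Cysltr1-/- by 1.40 ± 0.05 with GM-CSF alone (adjusted p = 7.22e-26) and by 1.56 ± 0.05 with IL-6 (1.05e-26).

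Genes of the pathways that act on these chemokines were counted by list. Of 15 regulators of NF-kB and of mRNA decay, 8 rose and 6 fell in labelled Cysltr1-/- and 8 rose and 4 fell in WT with EMT6 medium. There the test called 87.2% of all genes in labelled Cysltr1-/- and 81.3% in WT, so these counts do not set the list apart. Nfkbiz, an inducible nuclear partner of NF-kB, rose by 2.98 ± 0.06 and 2.68 ± 0.06, and Tnfaip3, the feedback inhibitor A20, by 2.09 ± 0.05 and 1.90 ± 0.05. Zfp36 encodes tristetraprolin, which promotes decay of AU-rich mRNAs, and was lower in labelled Cysltr1-/- than in WT by 1.12 ± 0.06 with GM-CSF alone (adjusted p = 6.41e-21) and by 1.12 ± 0.06 with IL-6 (1.12e-20). Its interaction with EMT6 medium was 1.23 ± 0.08 (1.16e-16), and its part in the chemokine differences was not tested. Between genotypes, 4 of the 15 were higher and 5 lower with GM-CSF alone, 1 and 10 with IL-6, and 1 and 10 with EMT6 medium. The shares of all genes called were 27.3%, 30.5% and 52.1% in that order.

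Of 8 measured cytokines that can act on these genes, 5 rose and 2 fell in labelled Cysltr1-/- and 6 rose and 1 fell in WT with EMT6 medium. These counts lie near the shares of all genes called, 87.2% and 81.3%. Il1a rose by 3.42 ± 0.07 and 4.08 ± 0.07, and Tnf by 1.71 ± 0.07 and 2.01 ± 0.07. Tnf was lower in labelled Cysltr1-/- than in WT by 1.17 ± 0.06 with EMT6 medium (adjusted p = 2.99e-19), by 0.77 ± 0.08 with IL-6 (3.02e-11) and by 0.87 ± 0.07 with GM-CSF alone (9.48e-14). Il6 was higher in labelled Cysltr1-/- by 2.54 ± 0.09 with GM-CSF alone (1.74e-26), and its interaction with EMT6 medium was -2.75 ± 0.13 (9.28e-21).

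Of 13 interferon-signalling regulators, 7 rose and 5 fell in labelled Cysltr1-/- and 8 rose and 4 fell in WT with EMT6 medium. With 87.2% and 81.3% of all genes called, these counts do not set the list apart. Irf7, a driver of type I interferon genes, rose by 2.64 ± 0.06 and 3.45 ± 0.06, and Irf5 fell by 3.61 ± 0.06 and by 3.58 ± 0.06. Of 7 genes of the IL-6 and STAT3 axis, 3 rose in labelled Cysltr1-/- and 5 in WT with IL-6, and the others did not pass. Of all genes, 5.55% and 10.4% were called higher there. Socs3, the feedback inhibitor induced by STAT3, rose by 0.51 ± 0.05 in labelled Cysltr1-/- (adjusted p = 4.01e-12) and by 0.91 ± 0.05 in WT (1.50e-20), and its interaction with IL-6 was -0.39 ± 0.06 (2.37e-05).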

How the data were processed

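The values are raw counts per gene that the authors deposited, 1 file per sample. The submitters' processing notes name mm10, HTSeq 0.13.5, HISAT2 2.1.0 and DESeq2 1.34.0. Annotation, strand setting and filters are not given in the sources used here, so reads of overlapping genes on opposite strands cannot be told apart. The 26248 numbered entries, 97 spike-in entries and 5 summary lines stayed out of library sizes and tests, and a deposited normalized table was not used. Symbols came from GENCODE M21, which listed 55450 of the 55536 gene IDs.

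All 18 libraries were fitted together in edgeR 4.0.16 (R 4.3.3; TMM, filterByExpr, quasi-likelihood test, 1 mean per group). P-values were adjusted over 28334 genes within each of 11 comparisons, and a gene was called at an adjusted p under 0.05. SE and 95% intervals come from the same test. The steps were tested on simulated data. Levels are TMM-scaled CPM computed from the counts, and with 9.58 M to 32.0 M gene counts a library, a few counts limit Ccl12. Replicate numbers were not treated as pairs, since no label ties same-numbered samples. Deviations from group means correlated at 0.009 on average for same-numbered samples (45 pairs, -0.279 to 0.346). For samples of different number the average was -0.005 (90 pairs, -0.289 to 0.329). These averages cannot exclude a shared pool or day between particular samples. Replicates of a group differed by more than sampling noise.

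Alternatives were DESeq2 1.42.0, its size factors, library sizes alone, no low-count filter, a replicate block, a fit of the compared groups by themselves, a filter at a mean of 5 CPM in some group, a minimum of 1 on the size of the log2 fold change, a subtracted background (exon length times the density, in that library, of reads outside annotated features) and each library left out. Leaving out the EMT6 medium libraries was added after seeing the data. All 7 members are named, with at most 4 genes of smallest p per other list. The members and lists were chosen with earlier results of these data known.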

Additional observations from a re-analysis of the deposited data

Results flagged for a closer look

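A total of 7 results were picked out because the response of a chemokine differed between genotypes by a test of the difference itself (edgeR's quasi-likelihood interaction test, all adjusted p under 0.05). Each is a log2 difference, the response in labelled Cysltr1-/- minus that in WT. For EMT6 medium it was -2.32 for Ccl4, -1.54 for Ccl12, -1.14 for Ccl2, -1.01 for Ccl8, -0.99 for Ccl7 and -0.58 for Ccl3. For IL-6 it was -0.73 for Ccl8.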

How the results depend on the processing

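A minimum of 1 on the size of the log2 fold change left 3 of 7 calls for EMT6 medium against IL-6 in labelled Cysltr1-/-, 3 of 6 between genotypes with IL-6, 1 of 4 between genotypes with EMT6 medium and 0 of 1 for the IL-6 interaction. Library sizes alone gave 7 calls, not 4, between genotypes with EMT6 medium, and put Ccl2 there at 0.16, against -0.08; the cause was not tested. For EMT6 medium against IL-6 in labelled Cysltr1-/-, Ccl5 (0.21) came to -0.0124 with DESeq2, -0.013 with its size factors and -0.0498 with no filter, and to 0.81 with library sizes alone, 0.52 with the 5 CPM filter and 0.45 with background subtracted, all called. It ranged from -0.0111 to 0.2678 on leaving out 1 library, and lost its call without labelled Cysltr1-/- IL-6 replicate 1 or EMT6 medium replicate 1, 2 or 3; the cause was not tested. Leaving out 1 library gave 1 to 2 calls for the IL-6 interaction. Between genotypes with EMT6 medium, Ccl2 was called lower without labelled Cysltr1-/- EMT6 medium replicate 2 (-0.18) or 3 (-0.24). The 5 CPM filter, which tests fewer genes, called 12903 rather than 24700 genes for EMT6 medium in labelled Cysltr1-/-, 12394 rather than 23046 in WT, 12810 rather than 24435 against IL-6 in labelled Cysltr1-/-, 12508 rather than 23190 in WT and 9569 rather than 14749 between genotypes with EMT6 medium. With the replicate block all 77 member results kept their side of the threshold, and the called ones kept their direction, including 7 calls for EMT6 medium in WT. Ccl12 gave no value under the 5 CPM filter, nor for IL-6 in WT with only the groups compared, and DESeq2 gave it no adjusted p in 2 comparisons. Counting error limits Ccl12, at 1 to 59 counts a library.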
